A study of Mus musculus with 10 samples.

Results

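Myb, the gene of the transcription factor c-Myb, was followed through every probe set that the deposited comparison tables name for it. Myb was 1 of the 634 genes so named, and its probe sets were 3 of the 35178 of the series, 1421317_x_at and 1450194_a_at on the 430A array and 92644_s_at on the U74Av2 array. The samples were ureteric buds of Swiss Webster mouse embryos at E11.5, the epithelial outgrowths that branch into the collecting system of the kidney. After isolation they spent 16 h in Matrigel culture with 100 ng/mL GDNF (plus GDNF) or without GDNF (minus GDNF). Each of the 2 Affymetrix array types had 3 plus GDNF and 2 minus GDNF arrays, and each array carried RNA pooled from several batches of buds, so the values describe whole buds and no single embryo. The names come from tables of probe sets that had passed the authors' filter for a change with GDNF on these same arrays. Myb was therefore selected on the contrast described here, other probe sets of it may exist without a name, and its p-values are no independent evidence of a change.

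c-Myb binds DNA through repeats of a helical domain and recognises sites with the core AACNG. It is best known for keeping blood progenitors, and the progenitors of the colon crypt and parts of the brain, in a dividing and undifferentiated state. In the ureteric bud, GDNF from the surrounding mesenchyme binds the receptor tyrosine kinase Ret at the bud tip, and Ret signalling raises the ETS transcription factors Etv4 and Etv5, downstream of which Myb has been placed in bud cells. ETS factors recognise DNA with the core GGAA.

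The Myb promoter is shown because Myb and the genes of both ETS factors were measured side by side here. RefSeq places it at chr10:21160985-21161234 (GRCm38.p6, minus strand), and the letters are the 250 bases before the transcription start, 5′ to 3′ on the strand of the gene, with the ETS core GGAA in capitals.
Myb promoter: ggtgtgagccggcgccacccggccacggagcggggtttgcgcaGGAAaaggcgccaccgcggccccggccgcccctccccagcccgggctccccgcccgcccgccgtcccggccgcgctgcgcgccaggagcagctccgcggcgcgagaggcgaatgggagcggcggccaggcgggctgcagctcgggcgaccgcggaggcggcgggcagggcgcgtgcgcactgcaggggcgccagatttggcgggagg
GGAA was searched on both strands and occurred 1 time, on the strand of the gene, its first base 207 bases before the start. It occurred in 93.4% of the 32851 mouse promoter windows of the same length, and in all 9 of the 9 matched genes of the Ret and ETS list described further on, Myb among them. The longer CCGGAA, which contains GGAA, was not in this window and was in 12.0% of all windows. The Myb core AACNG was likewise not in it and was in 74.2% of all. G and C made up 81.2% of the Myb window, against a median of 52.4% over all windows.

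On the 430A array, 1421317_x_at measured 302, 254 and 265 intensity units in the 3 plus GDNF arrays, against 128 and 161 in the 2 minus GDNF arrays. All 3 plus GDNF arrays lay above both minus GDNF arrays, and the means were 274 ± 25.5 (SD, n = 3) in plus GDNF buds and 144 ± 23.4 (SD, n = 2) in minus GDNF buds. For 1450194_a_at the values were 240, 191 and 163 in plus GDNF buds, against 75.6 and 45.4 in minus GDNF buds. Its groups did not overlap either, and its means were 198 ± 38.9 (SD, n = 3) in plus GDNF buds and 60.5 ± 21.3 (SD, n = 2) in minus GDNF buds. The U74Av2 probe set 92644_s_at measured 197, 217 and 137 with GDNF, against 66.5 and 28.3 without. Here too the lowest plus GDNF array stood above the highest minus GDNF array, with means of 183 ± 41.7 in plus GDNF buds (SD, n = 3) and 47.4 ± 27.0 in minus GDNF buds (SD, n = 2). Such a separation upward was seen in 15.3% of the 19521 probe sets tested on 430A and in 17.5% of the 10588 tested on U74Av2. In these pooled buds, more Myb RNA per cell and a larger share of cells that carry Myb RNA cannot be told apart.

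**Figure D1:**
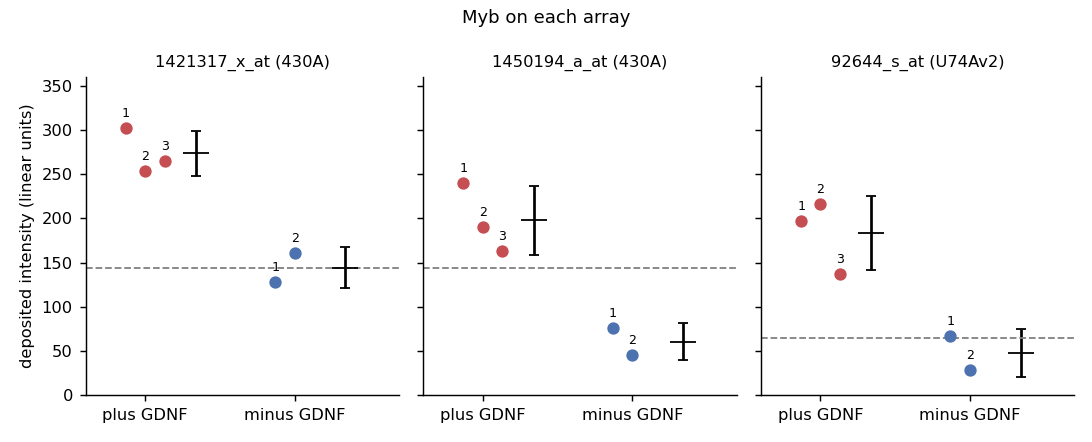
Deposited linear intensity of the 3 Myb probe sets on each array, in plus GDNF buds (red) and minus GDNF buds (blue), with the sample number beside each point, the group mean ± SD in black (n = 3 and n = 2) and the intensity floor as a dashed line. In every panel the 3 plus GDNF points lie above the 2 minus GDNF points, and 4 of the 6 minus GDNF points lie under the floor.

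The ratio of the group means was 1.90 for 1421317_x_at, 3.27 for 1450194_a_at and 3.87 for 92644_s_at, plus over minus GDNF. The direction was the same in the 3 probe sets. The ratios of 1450194_a_at and 92644_s_at divide by minus GDNF means under the intensity floor described further on, so their sizes are uncertain. By Affymetrix's naming, the endings x and s mark probe sets with probes that also match other transcripts, and the ending a marks one that matches several transcripts of its own gene; signal from other transcripts was not tested. In the authors' deposited table, 1421317_x_at had a fold of 1.96 (bounds 1.48 to 2.84) and 1450194_a_at a fold of 3.27 (2.11 to 6.21), and on U74Av2 the authors' deposited table gives 3.86 (2.11 to 12.52) for 92644_s_at. Their filter asked for a difference of means over 100 units, and in the authors' deposited tables Myb differed by 134, 137 and 136 units in that order of probe sets. These differences lie toward the lower end of the tables, whose medians are 278 on 430A and 284 on U74Av2, and they ranked 83 and 97 from the smallest of 693 and 38 of 312. The filter listed 2.39% of all 430A probe sets and 2.19% of all U74Av2 probe sets as higher with GDNF, a share from which nothing can be read for Myb, since listing is how it was found.

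The signal of the Myb probe sets lay in the lower range of both array types, which probe affinity as well as RNA level can set. With GDNF, between 24.9% and 50.3% of the probe sets of an array lay below Myb, depending on array and probe set. Without GDNF, between 2.17% and 22.3% did. To keep such low values from ruling the log ratios, intensities under the 20th percentile of each table (143 on 430A, 65.0 on U74Av2) were raised to that floor before the tests. Both minus GDNF arrays of 1450194_a_at fell under the floor, as did 1 of the 2 for each of the other probe sets.

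With the floor, 1421317_x_at had a log2 change of 0.85 ± 0.12 (SE), a fold of 1.80, with adjusted p = 0.076 in limma's fit over all 430A probe sets. The change of 1450194_a_at was at least 0.45 ± 0.17, a fold of at least 1.36, because its minus GDNF level is only bounded by the floor (adjusted p = 0.36, limma). On U74Av2, 92644_s_at had a log2 change of 1.45 ± 0.23, a fold of 2.74 (adjusted p = 0.15, limma). None of the 3 passed an adjusted p of 0.05, a threshold that limma's fit let 0% of the 430A probe sets and 0.00944% of those on U74Av2 pass. At an unadjusted p under 0.05 and higher with GDNF stood all 3 Myb probe sets, and 8.21% of all probe sets on 430A (1603) and 7.77% on U74Av2 (823). By size, 23 of the 10588 U74Av2 probe sets had a larger rise than Myb, which ranked 24. On 430A, 1421317_x_at ranked 156 and 1450194_a_at 917 of 19521, but by the plain ratio of means, without a floor, the order between them was reversed, with ranks 146 and 8 of 22626.

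**Figure D2:**
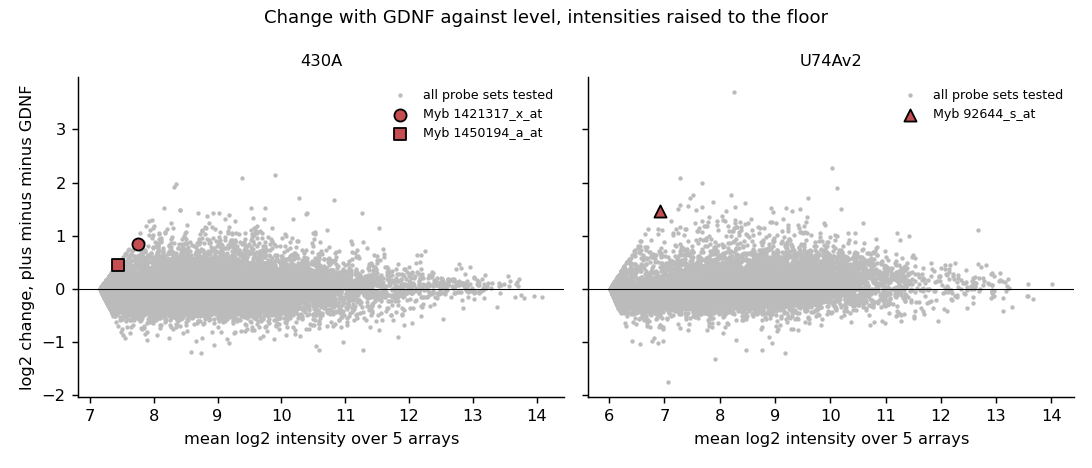
Log2 change (plus minus minus GDNF) against mean log2 intensity over the 5 arrays of each type, after raising low intensities to the floor, for all probe sets tested (grey) and the Myb probe sets (red). Myb sits at the dim left end, where the floor narrows the changes that can be measured, and 92644_s_at lies among the upper points of U74Av2 at 1.45.

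The array types were then combined, using on 430A the brighter probe set, 1421317_x_at. Myb was higher by a mean log2 of 1.15 over the 2 types. Arrays of the same name on the 2 types deviated together from their group means, with correlations of 0.41 to 0.59 across the genes named on both, so they may not be independent. With same-named arrays kept together the labels can be arranged in only 10 ways, and the two-sided exact permutation p was 0.1, the smallest possible. With each of the 10 arrays taken for a pool of its own, the exact permutation p was 0.01, the smallest that 100 arrangements within each type can give. With a floor at the 40th percentile in place of the 20th, the combined change was at least 0.23 and no longer passed (exact permutation p = 0.05, limma adjusted p of 1). In limma's fit over the 184 genes named on both types Myb passed (adjusted p = 7.7e-04, and 0.016 with sample name as a random block), and 162 of them, 88%, passed and were higher with GDNF. Limma's p-values over both types were adjusted as for 10588 tests, the number of probe sets tested on U74Av2, and not for 184. In an exact permutation test of 1 array type alone, 10 arrangements of 3 against 2 arrays cannot go below 0.1 either. The value was 0.1 for 1421317_x_at and 92644_s_at, and 0.2 for 1450194_a_at with its minus GDNF arrays at the floor.

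The change was larger on U74Av2 than on 430A by 0.61 ± 0.26 (SE) on the log2 scale, with a 95% interval of 0.04 to 1.17. The interaction test in limma over the 184 genes named on both types gave it an adjusted p of 0.68, and 0.04 unadjusted. A difference of this size between probe sets of different arrays was therefore neither established nor shown to be absent. The intensity levels themselves cannot be compared between the types or between probe sets.

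The size of the change depended on how low intensities were treated more than on any other choice tried. With the deposited intensities taken as they stand, the log2 change was 0.93 ± 0.15 (SE) for 1421317_x_at, 1.74 ± 0.25 for 1450194_a_at and 2.05 ± 0.39 for 92644_s_at. With a floor at the 40th percentile the same changes were at least 0.21, at least 0.01 and at least 0.24, since both minus GDNF values of every Myb probe set then lie under the floor. The probe set 1421317_x_at thus kept nearly the same change from no floor to the 20th percentile. The change of 1450194_a_at went from 1.74 without a floor to at least 0.45 with the 20th percentile floor, and that of 92644_s_at from 2.05 to 1.45. The limma adjusted p of 1450194_a_at was 0.037 when 16 units were added to every intensity in place of a floor. The value of 1421317_x_at was 0.91, with limma adjusted p = 0.030, when array medians were centred.

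**Figure D3:**
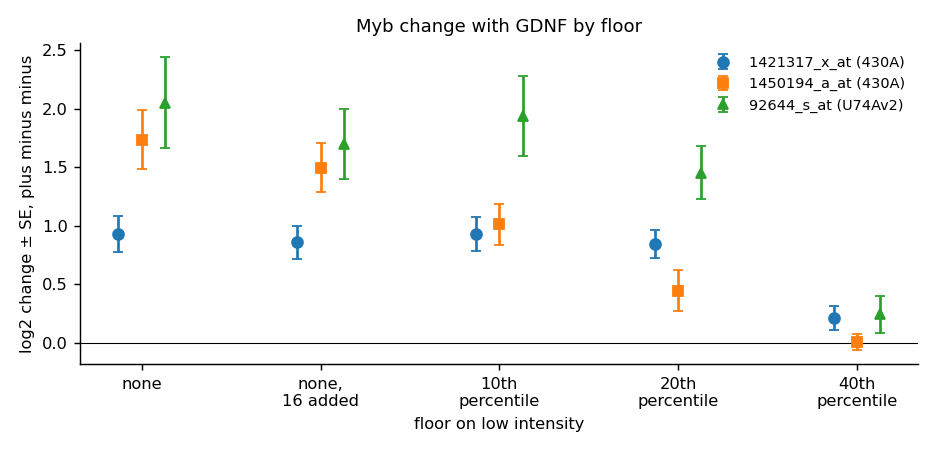
Log2 change of each Myb probe set (plus minus minus GDNF, ± limma's SE) with no floor, with no floor and 16 units added, and with floors at the 10th, 20th and 40th percentile of the table. All values are above 0, and the 3 probe sets come down to between 0.01 and 0.24 at the highest floor, where all 3 are lower bounds.

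Sample 3 of the plus GDNF group and sample 2 of the minus GDNF group stood out in a measure of RNA quality, and their Myb values were read beside it. Plus GDNF sample 3 was the lowest of its group for 1450194_a_at and 92644_s_at. For the same 2 probe sets minus GDNF sample 2 was the lowest of its group, but a group of 2 arrays always has a lower member. In 1421317_x_at neither was the lowest. The 3′ signal of the Gapdh control over its 5′ signal, a ratio that grows as RNA breaks down, was highest in these samples on both types, 1.52 and 1.46 in plus GDNF sample 3 and 1.74 and 1.60 in minus GDNF sample 2 (430A and U74Av2), against 1.06 to 1.22 in all other arrays. Without these samples the log2 change was 0.95 for 1421317_x_at, at least 0.58 for 1450194_a_at and 1.64 for 92644_s_at, each larger than with them. This left minus GDNF sample 1 as the only array of its group on each type. For 1450194_a_at, with its minus GDNF arrays at the floor, leaving out the lowest plus GDNF array can only enlarge the change. For 92644_s_at the lowest plus GDNF array was left out as well, and for 1421317_x_at the higher minus GDNF array. The larger changes thus follow from which values were left out, and the part of RNA quality was not tested. Of the other genes of the Ret and ETS list, 9 of 12 on 430A and 5 of 7 on U74Av2 also had their lowest plus GDNF value in sample 3, against 37.6% and 23.1% of all probe sets tested. Their lowest minus GDNF value was in sample 2 for 7 of 12 on 430A and 6 of 7 on U74Av2, against 37.3% and 35.5% of all.

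Myb was next set beside the genes of Ret signalling and its ETS factors. Of 20 listed genes besides Myb, 12 were named on 430A and 7 on U74Av2, and all of these were higher with GDNF. The median log2 change was 1.43 on 430A and 1.77 on U74Av2, against 0.60 over the 543 genes and 0.78 over the 275 genes named on each type, of which 416 and 241 were higher. Since every named gene had been selected for change, and the list was drawn up with results of these arrays known, the counts are no evidence for the list. All 12 on 430A had an unadjusted p under 0.05 in limma and were higher, against 8.21% of all 430A probe sets tested. That too follows the selection for change and is no evidence for the list. None of these 12 passed limma's adjusted p of 0.05, and of the 7 on U74Av2, 1 did. The gene that passed was Wnt11, which encodes a Wnt ligand made at bud tips, and it did not pass when any 1 U74Av2 array was left out (adjusted p of at least 0.11, limma). Its minus GDNF arrays there lay under the floor, so the test counted no spread between them.

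The receptor gene Ret averaged 536 ± 176 in plus GDNF buds (SD, n = 3) and 184 ± 29.8 in minus GDNF buds (SD, n = 2) on 430A, and 317 ± 118 with GDNF against 88.5 ± 15.3 without on U74Av2. Etv4 measured 755 ± 251 with GDNF and 268 ± 26.6 without on 430A, and 901 ± 139 with GDNF against 312 ± 54.5 without on U74Av2. Etv5, named on 430A only, measured 589 ± 208 with GDNF and 105 ± 30.4 without, a level under the floor. Cxcr4, the receptor of the chemokine Cxcl12, measured 552 ± 114 with GDNF and 107 ± 10.8 without on 430A, and 292 ± 106 with GDNF and 20.7 ± 2.57 without on U74Av2, both levels without GDNF again under the floor. Like Myb it was thus a gene whose signal without GDNF lay near or under the floor.

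The feedback inhibitors of the pathway were measured alongside. The log2 change of Spry1 was 1.71 ± 0.18 (SE) and that of Spry2 1.08 ± 0.12 on 430A, both inhibitors of receptor tyrosine kinase signalling. Spred2 and Spred1, inhibitors of the step to ERK, stood at 1.14 ± 0.13 and 0.53 ± 0.11 there. The ERK phosphatase Dusp6 had 1.42 ± 0.30 on 430A and 1.89 ± 0.36 on U74Av2. Ccnd1, the cyclin of the early cell cycle, had 1.67 ± 0.26 and 1.50 ± 0.29 on these types, and Sox9, a transcription factor of the bud tip, 0.62 ± 0.13 on 430A. The brighter Myb probe set, at 0.85 on 430A, thus lay above Sox9 and Spred1 and below the other 10, and the U74Av2 probe set, at 1.45, below all 7 measured there. This order depended on the floor: by the ratio of means on U74Av2, Myb at 3.87 stood above Ret at 3.58, Dusp6 at 3.39, Spred2 at 2.94, Etv4 at 2.89 and Ccnd1 at 2.75. The differences between genes were not tested.

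**Figure D4:**
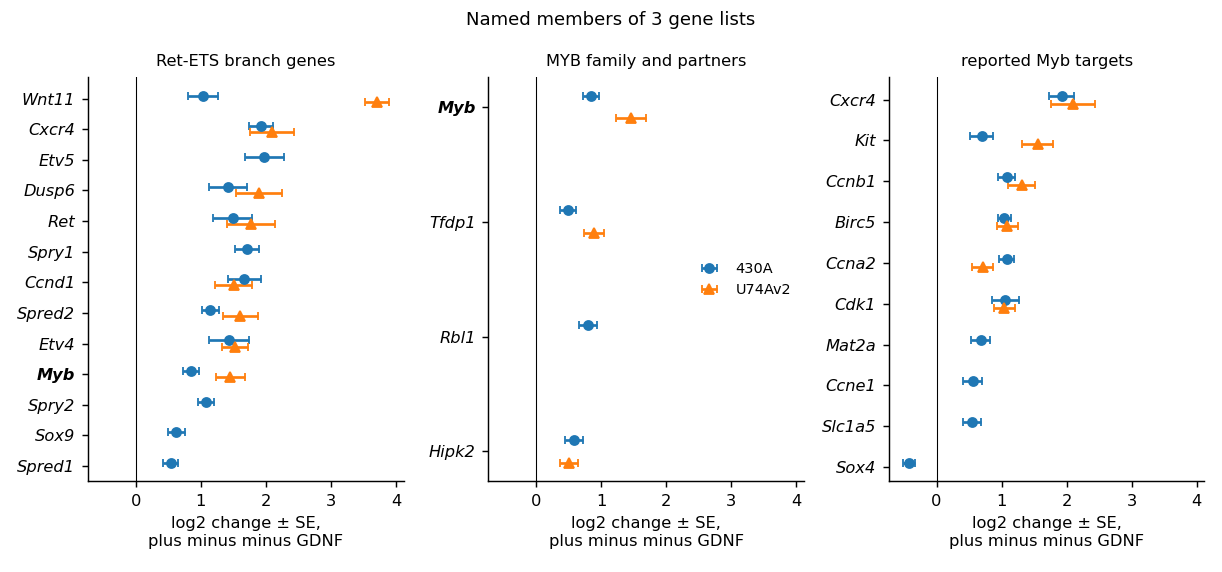
Log2 change (plus minus minus GDNF, ± limma's SE) of the named members of 3 gene lists on 430A (circles) and U74Av2 (triangles), Myb in bold. Values of Etv5, Cxcr4 and, on U74Av2, Wnt11 are lower bounds set by the floor. For Myb, minus GDNF sample 1 on 430A (128) and minus GDNF sample 2 on U74Av2 (28.3) were also raised to the floor. Sox4 alone lies below 0.

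Few genes listed as members of the MYB family or as partners could be read. Of 23 listed family members and partners besides Myb, 3 were named on 430A and 2 on U74Av2, and the other members of the family, Mybl1 and Mybl2, were not among them. All were higher with GDNF and none passed the test on 1 type, with a median log2 of 0.58 on 430A and 0.69 on U74Av2, near those over all named genes. Rbl1, a pocket protein of the retinoblastoma family, averaged 328 ± 17.8 in plus GDNF buds (SD, n = 3) and 190 ± 31.5 in minus GDNF buds (SD, n = 2) on 430A. Tfdp1, the partner of E2F factors, measured 1463 ± 169 with GDNF and 1042 ± 9.98 without there, and 1089 ± 87.6 with GDNF against 589 ± 47.3 without on U74Av2. Hipk2, a kinase reported to mark c-Myb for degradation, measured 652 ± 75.2 with GDNF and 435 ± 53.5 without on 430A, and 578 ± 36.3 with GDNF against 408 ± 2.71 without on U74Av2. The groups of these 3 genes did not overlap on any type on which they were named. Such an upward separation was seen in 15.3% of all probe sets tested on 430A and in 17.5% on U74Av2. Since named genes had been selected for change, nothing can be read from it for these 3.

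Genes reported as c-Myb targets in blood or other cells were mostly higher too. Of 35 listed, 10 were named on 430A, 9 higher and 1 lower, and 6 on U74Av2, all higher, with medians of log2 0.87 and 1.20 and none past limma's adjusted p of 0.05 on 1 type. Over all named genes 416 of 543 on 430A and 241 of 275 on U74Av2 were higher. Over both types all 6 passed, as did 183 of all 184 genes. Kit, the receptor for stem cell factor, measured 416, 409 and 299.8 with GDNF, against 214 and 245 without on 430A. On U74Av2 it measured 304, 305 and 196 with GDNF, against 93.1 and 86.1 without. Kit, like Myb, thus had a larger change on U74Av2 (log2 1.56 ± 0.23 SE) than on 430A (0.69 ± 0.17), with an interaction of adjusted p = 0.32 in limma.

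The other targets with the smallest p were genes of cell division and Cxcr4, which is also on the Ret list. Birc5, survivin, had a log2 change of 1.04 ± 0.10 (SE) on 430A and 1.09 ± 0.16 on U74Av2. The mitotic cyclin Ccnb1 had 1.08 ± 0.13 and 1.31 ± 0.20, and Ccna2, the cyclin of S phase and early mitosis, 1.08 ± 0.11 and 0.71 ± 0.16. Cdk1, their kinase, had 1.06 ± 0.21 and 1.04 ± 0.17, and Cxcr4, already described, at least 1.92 and at least 2.09. The 1 listed target that was lower was Sox4, a transcription factor, at 843 ± 40.8 in plus GDNF buds (SD, n = 3) and 1127 ± 6.33 in minus GDNF buds (SD, n = 2), singled out after its value was seen.

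The pattern of Myb over all 10 arrays was compared with that of the 183 other genes named on both types, clone and predicted names passed over. The measure was the root mean square difference of log2 values after each gene was centred within each type, where 0 means the same pattern and size and the median gene stood at 0.31. Kit was nearest to Myb (0.14), followed by Plk4, the kinase of centriole duplication (0.14), and Ncaph, a condensin subunit (0.18). Ctnnd2, delta-catenin, and Cdc7, the kinase that fires replication origins, were next (0.19 each). These genes share the arrays and the selection for change, and closeness in this measure is only a description.

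The ranking depended on the floor. Without a floor, Spred2 stood nearest to Myb and Kit sixth, and only 1 of the 5 nearest genes, Ncaph, was shared. With a floor at the 40th percentile Kit ranked 27 and 1 of the 5 was shared. On the 430A array alone, with 5 arrays and 539 other genes, the 5 nearest were Mad2l1 of the spindle checkpoint (0.04), Galnt7, an enzyme of protein glycosylation (0.05), Kif11, a spindle motor (0.06), Rif1 of replication timing (0.07) and the adhesion molecule Cadm1 (0.07), against a median of 0.21.

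**Figure D5:**
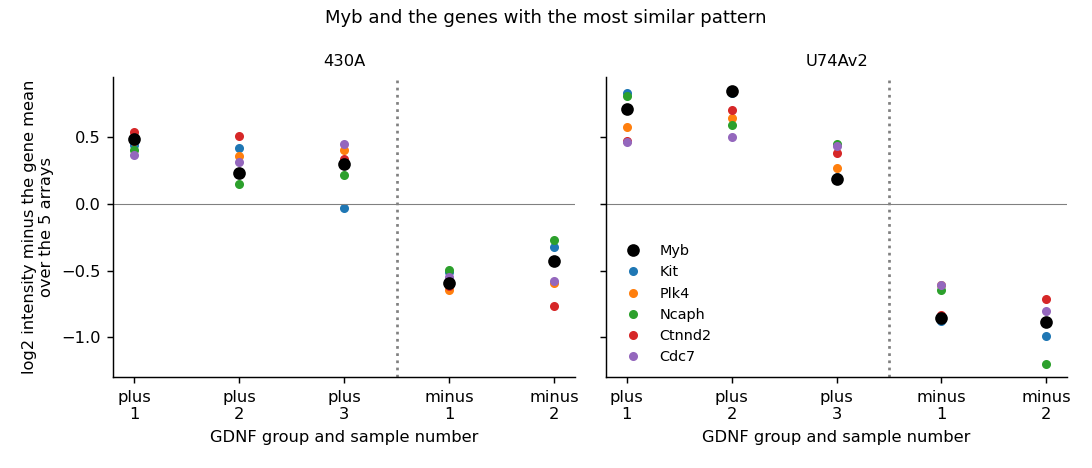
Log2 intensity of Myb (black) and the 5 genes nearest to it, each minus its mean over the 5 arrays of the type, for every plus GDNF array (left of the dotted line) and minus GDNF array on 430A and U74Av2. All 6 genes lie above 0 in plus GDNF and below 0 in minus GDNF arrays, except Kit in plus GDNF sample 3 on 430A, which lies just below 0.

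Markers of dividing cells and of other cell types were read on the same arrays. Of 35 listed genes of proliferation, 27 were named on 430A and 20 on U74Av2. All of them were higher with GDNF, with median log2 changes of 0.96 and 1.12. Myb stood at 0.85 for its brighter 430A probe set, at least 0.45 for the other, and 1.45 on U74Av2. Over all named genes, each selected for change, 416 of 543 on 430A and 241 of 275 on U74Av2 were higher, with medians of 0.60 and 0.78. None of the proliferation genes passed on 1 type, and over both types 18 of 18 did, as did 183 of all 184 genes. The part of cell division in the Myb values was not tested.

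Cells outside the bud epithelium could be judged only in part. Of 15 markers of blood and blood progenitors, where Myb is also expressed, Kit alone was named, and the others, with the globins and Ptprc among them, have no named probe set here. No member of the endothelium list of 7 was named. Of 11 mesenchyme markers 3 were named on 430A, Ncam1, Cited1 and Cdh11, and of 9 stroma markers Vim, Postn and Tcf21, and all 6 were lower with GDNF, with medians of log2 -0.51 and -0.62. On U74Av2 the named ones were Ncam1 at -0.65 and Acta2 at -0.41, and none of these markers passed on 1 type. Over all named genes 416 of 543 on 430A and 241 of 275 on U74Av2 were higher. Every named marker had been selected for change, so these counts say nothing of the markers without a name. Of 17 markers of the bud epithelium 7 were named on 430A, Calb1, Lhx1, Ret and Wnt11 higher and Cdh16, Krt8 and Npnt lower. The calcium-binding protein gene Calb1 measured 5988 ± 449.7 intensity units in plus GDNF buds (SD, n = 3) and 3661 ± 615 in minus GDNF buds (SD, n = 2) on 430A. On U74Av2 it measured 3635 ± 441 with GDNF and 1844 ± 341 without. In the other direction on 430A, Cdh16 measured 2902 ± 864 with GDNF and 5367 ± 755 without. Krt8 measured 4057 ± 473 with GDNF and 5801 ± 599 without there, and Npnt 620 ± 113 with GDNF and 1056 ± 197 without. The part of a shifted cell mixture in the Myb values was not tested.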

How the data were processed

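The 10 arrays were grouped by their titles. Per the labels, RNA from batches of cultured buds was pooled for each array and labelled with biotin. The value tables deposited by the authors give a linear intensity for each of 22690 probe sets on 430A and 12488 on U74Av2. Their normalization is not given in the sources used here; per the series text, groups were compared in dChip. The authors' deposited tables list probe sets whose signed fold (handled as a score because lower values are written as negative folds) had a lower 90% bound over 1.2 and a difference of means over 100.

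Names came from those tables' Entrez identifiers and RefSeq symbols (GRCm38.p6): 661 of 693 probe sets on 430A and 292 of 312 on U74Av2 had 1 protein-coding gene. Myb was matched by symbol and identifier. Control probe sets (64 and 66) and those never above the floor (3105 and 1834) were not tested. Each type was fitted in limma 3.58.1 under R 4.3.3 (two-sided, Benjamini-Hochberg over all probe sets tested), tested first on simulated data. For gene-level values the probe set with the highest mean was used. In the fit over both types p was adjusted as for 10588 tests, the probe sets tested on U74Av2. The interaction was adjusted over the 184 genes named on both types. Array medians were 281 to 321 on 430A and 211 to 248 on U74Av2, and the number of arrays limits the precision. The p-values measure the spread between arrays after low values were raised to the floor. Values under the floor become equal there, so their spread is not counted and SE and p can come out smaller. SE is limma's moderated standard error.

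Named genes were every named member of the Ret-ETS and partner lists, the 6 targets with the smallest p, and the 5 genes nearest to Myb over both types and on 430A. One listed gene is not reported here, and list counts leave it out. The members and lists were chosen with earlier results of these data known. Alternatives were other floors and normalizations, a trended variance, dim probe sets left out, sample number as a block, each array left out, and the mean over Myb probe sets. The deposited values without a floor, and the exclusion of plus sample 3 and minus sample 2, were added after the data were seen.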

Additional observations from a re-analysis of the deposited data

Results flagged for a closer look

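The change of Wnt11 differed between the array types by the interaction test in limma (adjusted p = 1.7e-04). It was larger on U74Av2 than on 430A by at least 2.67 on the log2 scale, the U74Av2 minus GDNF arrays lying under the floor. The test therefore counted no spread between those arrays, which can make its p-value too small. Wnt11 measured 860.2 ± 149 in plus GDNF buds (SD, n = 3) and 34.7 ± 6.31 in minus GDNF buds (SD, n = 2) on U74Av2, and 1457 ± 391 in plus GDNF and 696 ± 84.3 in minus GDNF buds on 430A. The groups of 3 and 2 arrays are too small for a search for single arrays far from their group.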

How the results depend on the processing

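Myb was higher with GDNF in all 3 probe sets under every alternative run. Past an adjusted p of 0.05 came 1421317_x_at with array medians centred (log2 0.91, adjusted p = 0.030, limma) and 1450194_a_at with 16 units added and no floor (log2 1.50, adjusted p = 0.037). Over both types, the permutation test no longer passed with the floor at the 40th percentile (log2 at least 0.23, exact p = 0.05) or with labels permuted by sample name (log2 1.15, p = 0.1, exact). In limma's fit over both types, Myb had adjusted p = 7.7e-04, and 0.016 with sample name as a random block, but adjusted p of 1 with the floor at the 40th percentile. With the mean over the Myb probe sets of a type it had log2 of at least 1.05. Whether numbers in the titles pair the samples could not be decided. Deviations of same-numbered plus and minus GDNF arrays correlated at -0.02 and -0.62 on 430A and at 0.16 and -0.70 on U74Av2. With 2 minus GDNF arrays, the deviations of these are mirror images of each other. Pairing with the other minus GDNF array therefore gives the same values with the sign reversed, such as 0.02 and 0.62 on 430A. With sample number as a replicate block, 1421317_x_at had log2 0.87, 1450194_a_at at least 0.58 and 92644_s_at 1.65 (limma adjusted p of 0.49, 0.64 and 0.61), and over both types the pairs 1 and 2 gave a mean of 1.26. Restricting the tests to probe sets above the median level removed all 3 Myb probe sets, so it gave no value for them. Limma's calls ranged from 0 to 153 on 430A, against 0 in the fit reported: 153 above the median level, 113 with medians centred, 106 with 16 added, 48 with a trended variance, 38 with no floor and 30 with the floor at the 10th percentile. On U74Av2 they ranged from 0 to 7, against 1. Of 800 recomputed values of other named genes, 722 kept their direction and side of the threshold, 71 newly passed, 7 (all of Wnt11 on U74Av2) no longer did and 0 reversed. The cause of these shifts was not tested.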
